A study of Mus musculus with 9 samples.

Results

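Loss of the Hippo kinases Mst1 and Mst2 together with their target Yap was compared with wild type in the initial segment of the mouse epididymis, where the duct begins. The comparison took 6 of the 9 libraries of the study: 3 triple knockout libraries (Mst1/2; Yap tKO) and 3 wild-type libraries (WT). The remaining 3 libraries, a double knockout of Mst1 and Mst2 (Mst1/2 dKO), were used to ask which differences were also present while Yap was intact. All groups were of strain C57BL/6 at 4 weeks of age, and mRNA was selected with oligo(dT). The labels do not name the alleles, the Cre driver or the animals behind a library, so p-values measure only the spread between these libraries, which may be technical.

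In the Hippo pathway, Mst1 (gene Stk4) and Mst2 (gene Stk3) activate the Lats kinases, which phosphorylate Yap (gene Yap1) and its relative Taz (gene Wwtr1) and keep them out of the nucleus. Nuclear Yap binds the Tead factors and switches on genes for growth. The principal cells of the initial segment secrete lipocalins, cystatins and defensins into the duct, and their differentiation depends on luminal factors from the testis and on ERK signalling.

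Values are FPKM of transcript events (first exons, last exons, skipped or retained parts), summed over first or last exons to give a gene value. Gene differences were tested with limma on log2(FPKM + 1), and a gene was called at a Benjamini-Hochberg adjusted p under 0.05. Summed first-exon FPKM ranged from 231670 to 253235 over the libraries. Between 13607 and 15226 genes had a value above 0, with tKO replicate 2 at the top. The files hold no counts, so the depth behind a value is unknown. On the first principal component, with 28.9% of the variance, WT lay at -8.31 to -0.97 and the tKO libraries at 8.63, 31.53 and 16.46, so tKO replicate 2 stood farthest from WT. Positions are on GRCm38.

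The exons that the knockout transcripts lack are shown first, because they check the labels. Sequences are from the GENCODE M21 transcripts, with the exon in capitals and 20 bases of the neighbouring exons in lower case. Stk4 exons 4 and 5 of 11 lie at chr2:164086495-164086609 and chr2:164088841-164089005 on the plus strand and Stk3 exons 5 and 6 of 11 at chr15:35073057-35073221 and chr15:35072430-35072597 on the minus strand. All 4 exons are wholly coding. Together they hold 280 bases in Stk4, which leaves a remainder of 1 when divided by 3, and 333 bases in Stk3, a multiple of 3. Exon 5 of both genes has 165 bases, of which 132 (80.0%) are identical without gaps, and is printed for each.
Stk4 exon 5: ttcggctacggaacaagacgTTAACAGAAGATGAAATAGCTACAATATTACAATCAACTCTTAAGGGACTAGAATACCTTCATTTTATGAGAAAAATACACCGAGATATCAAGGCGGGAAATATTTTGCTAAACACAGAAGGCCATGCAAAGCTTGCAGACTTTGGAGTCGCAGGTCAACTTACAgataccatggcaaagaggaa
Stk3 exon 5: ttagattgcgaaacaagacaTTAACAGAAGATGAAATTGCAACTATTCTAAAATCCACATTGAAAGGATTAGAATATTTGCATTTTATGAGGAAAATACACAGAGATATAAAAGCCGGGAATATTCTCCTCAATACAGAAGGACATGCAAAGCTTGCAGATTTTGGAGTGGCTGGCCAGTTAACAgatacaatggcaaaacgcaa

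Each tKO library carried the skipped forms of both kinase genes, and Yap1 fell. The form of Stk4 without exons 4 and 5 was 58.7%, 58.0% and 24.5% of both forms in tKO replicates 1, 2 and 3 and was not listed in any WT library. In tKO replicate 3 the complete form had 7.35 FPKM, against 3.56 and 3.38 in replicates 1 and 2 and 8.97, 10.6 and 9.49 in WT. The form of Stk3 without exons 5 and 6 was 40.8%, 36.8% and 42.2% in tKO and was not listed in WT. For both genes the groups did not overlap (two-sided exact permutation p = 0.1, the smallest that 3 against 3 libraries allow). In dKO the shares were 68.6%, 64.8% and 59.4% for Stk4 and 59.6%, 60.9% and 48.5% for Stk3, each above every tKO library (exact permutation p = 0.1 for each gene). A bulk sample holds cells outside the targeted ones, and fewer targeted cells and less RNA per cell cannot be told apart. Total RNA of Stk4 and Stk3 was not called, with log2 fold changes of -0.13 ± 0.13 (SE; limma, adjusted p = 0.71) and -0.16 ± 0.12 (adjusted p = 0.61).

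Yap1 (chromosome 9, 7931999 to 8004596, minus strand) had 23.2, 25.2 and 26.9 FPKM in WT and 8.86, 8.68 and 8.33 in tKO, with no overlap. The log2 fold change was -1.44 ± 0.09 (SE; limma, adjusted p = 0.00024), a fall, while dKO had 26.4, 25.2 and 27.9 FPKM. Of the tKO signal, 8.76, 5.65 and 8.20 FPKM came from the main first exon (8004115 to 8004588). In replicate 2 another first exon (8001457 to 8001703) gave 3.03 FPKM. Yap1 exon 6 of 9 (chr9:7950492-7950539), a coding cassette of 48 bases, is shown because its use was measured in the remaining Yap1 RNA.
Yap1 exon 6: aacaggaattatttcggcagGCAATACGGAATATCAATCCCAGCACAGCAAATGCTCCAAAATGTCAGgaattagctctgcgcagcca
The form without it was 38.5%, 54.2% and 53.3% of both forms in WT and 40.1%, 74.7% and 40.9% in tKO. The groups overlapped (exact permutation p = 0.8), with tKO replicate 2 the highest of the 6 libraries.

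**Figure D1:**
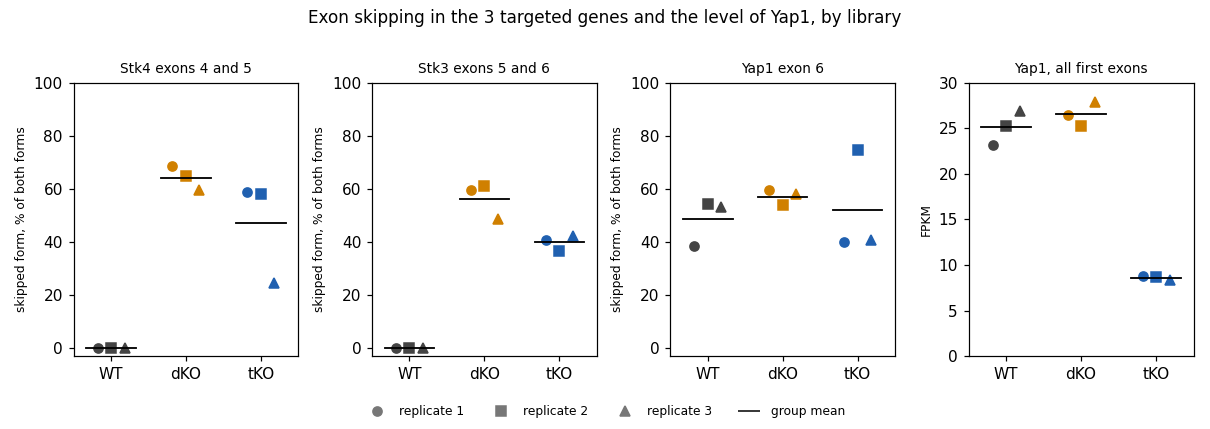
Percent of the exon-skipping form for Stk4, Stk3 and Yap1 (first 3 panels, y axis in percent of both forms) and FPKM of Yap1 (last panel) in each WT, dKO and tKO library; symbols are replicates and bars group means. Skipping of Stk4 and Stk3 exons is at 0 in WT, and Yap1 lies at 8.33 to 8.86 FPKM in tKO against 23.2 to 26.9 in WT.

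Across the transcriptome few genes were called in tKO versus WT. With 3 libraries in each group, a gene that was not called is not shown to be unchanged. Of 12105 tested genes 20 were called (0.165%), 10 higher and 10 lower (0.0826% each), and 1603 (13.2%) had an unadjusted p under 0.05. The called falls were Pla2g5, Cst12, Yap1, Tenm4, Sema3b, Lipc, Gm44930, Pdk1, Pepd and Asns. The genes called higher were Cep85, Sumo2, Aldh4a1, C230088H06Rik, Apobec3, 4833420G17Rik, Fxyd2, Tmem254b, Tmem254c and Rplp0. The number rests on single libraries: it was 13 (0.108%), 7 (0.0582%) and 10 (0.0832%) without WT replicates 1, 2 and 3. It was 12 (0.0998%) without dKO replicate 1, 153 (1.27%) without tKO replicate 1 and 8 (0.0669%) without tKO replicate 2. The count moved less without dKO replicate 2 (20 of 12045 tested), dKO replicate 3 (14 of 12012) and tKO replicate 3 (19 of 11958). Fitted on the WT and tKO libraries alone, 13 genes were called, 5 of them among the 20.

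**Figure D2:**
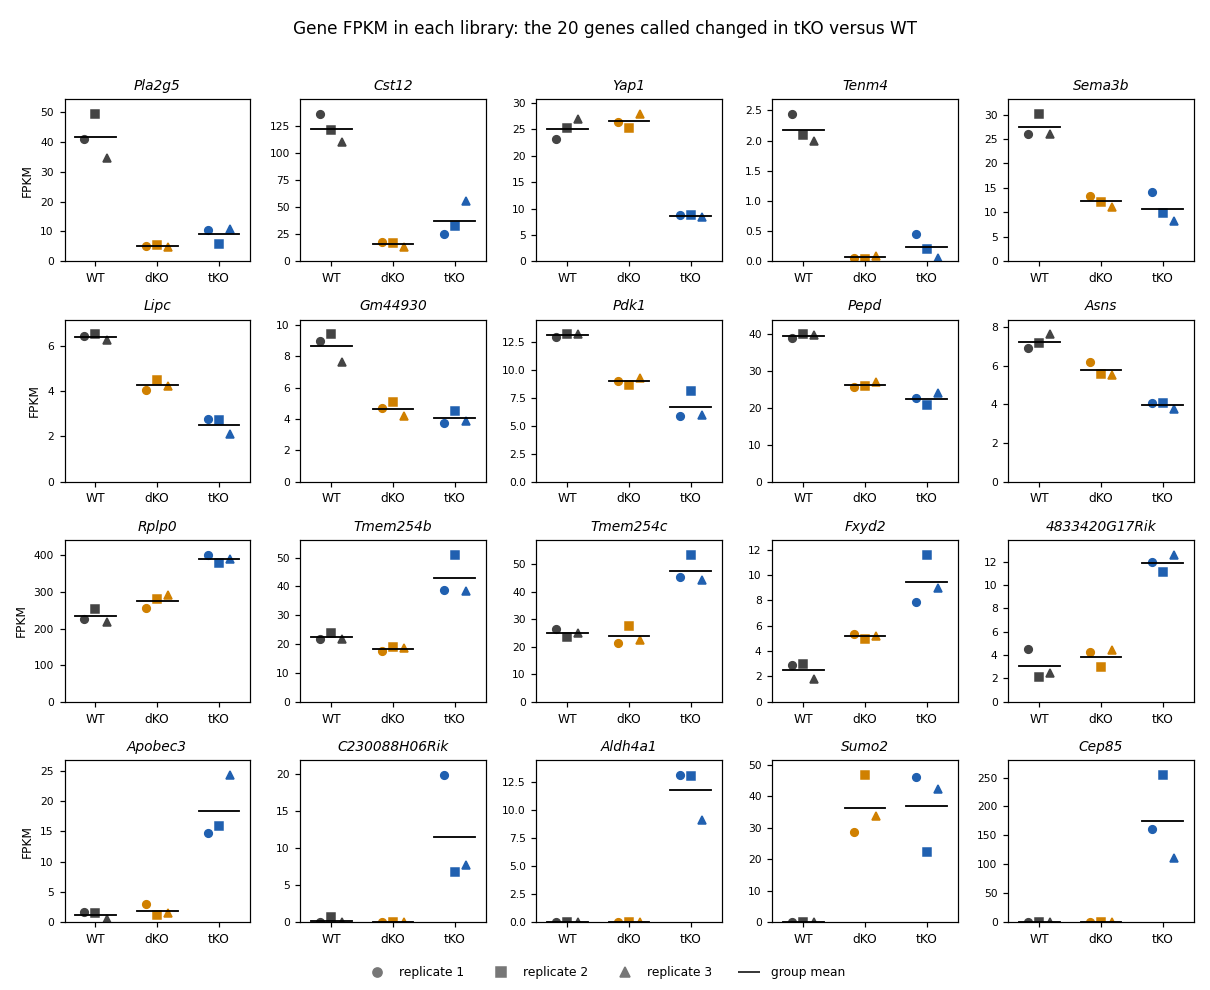
Gene FPKM (y axis, a scale for each gene) of the 20 called genes in each WT, dKO and tKO library; symbols are replicates and bars group means. The exons used for Cep85 and Aldh4a1 are listed at 0 in WT and dKO, where other events of these genes had values. Sumo2 is listed at 0 in WT alone, and Yap1 is low in tKO alone.

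Secreted lipid enzymes and a secreted protease inhibitor were among the falls. Pla2g5, a secreted phospholipase A2 (chromosome 4, 138799244 to 138863482), had 40.9, 49.4 and 34.7 FPKM in WT and 10.6, 5.75 and 10.9 in tKO. Every WT library lay above every tKO library, and the gene fell by 2.12 ± 0.22 on the log2 scale (SE; limma, adjusted p = 0.01). Cst12, an epididymal cystatin (chromosome 2, 148789361 to 148793546), had 136, 121 and 111 FPKM in WT and 24.8, 32.7 and 55.4 in tKO, a fall of 1.75 ± 0.26 (adjusted p = 0.048). The call of Cst12 was lost in 7 of the 9 fits that left out 1 library, with adjusted p up to 0.16. Lipc, hepatic lipase (chromosome 9, 70798128 to 70952226), had 6.46, 6.53 and 6.29 FPKM in WT and 2.76, 2.73 and 2.10 in tKO, a fall of 1.08 ± 0.12 (adjusted p = 0.012). Lipc was measured by its last exons; its first exons alone gave a log2 fold change of -0.48 (adjusted p = 0.71).

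Enzymes of amino acid, dipeptide and pyruvate metabolism fell less far. Pepd, prolidase, which splits dipeptides that end in proline (chromosome 7, 34912379 to 35044708), had 38.8, 39.9 and 39.6 FPKM in WT and 22.6, 20.7 and 23.9 in tKO. The groups lay far apart against their spread, and Pepd fell by 0.79 ± 0.08 (limma, adjusted p = 0.01). Asns, asparagine synthetase (chromosome 6, 7675169 to 7693254), had 6.92, 7.17 and 7.64 FPKM in WT and 4.07, 4.07 and 3.74 in tKO, a fall of 0.73 ± 0.10 (adjusted p = 0.036). Pdk1, the kinase that inhibits pyruvate dehydrogenase (chromosome 2, 71873224 to 71903858), had 13.0, 13.2 and 13.2 FPKM in WT and 5.91, 8.08 and 5.97 in tKO, a fall of 0.90 ± 0.12 (adjusted p = 0.03). Asns kept its call in 1 and Pdk1 in 2 of the 9 fits without 1 library, while Pepd kept it in 7.

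A guidance ligand and an adhesion protein fell as well. Sema3b, a secreted semaphorin (chromosome 9, 107597674 to 107609229), had 26.0, 30.1 and 26.0 FPKM in WT and 14.1, 9.95 and 8.18 in tKO. Its log2 fold change was -1.3 ± 0.17 (limma, adjusted p = 0.03). Of the fits without 1 library, only that without tKO replicate 1 kept the call of Sema3b (limma, adjusted p up to 0.13 in the others). Tenm4, a transmembrane teneurin (chromosome 7, 96171246 to 96911093), was low throughout, at 2.44, 2.09 and 1.99 FPKM in WT and 0.458, 0.203 and 0.0553 in tKO. Its fall, a log2 fold change of -1.37 ± 0.19 (adjusted p = 0.04), is on the log2(FPKM + 1) scale, which understates the change of a low gene. The call of Tenm4 was lost without any 1 of the dKO libraries and without tKO replicate 2 or 3 (adjusted p up to 0.13). Gm44930, an antisense RNA on chromosome 7, fell from 8.67 ± 0.913 to 4.04 ± 0.429 FPKM (mean ± SD, n = 3; limma, adjusted p = 0.03). Gm44930 kept its call in 2 of the 9 fits without 1 library (limma, adjusted p up to 0.13). No statement that the counting used strand is given in the sources used here. Reads of an antisense gene and its partner therefore cannot be told apart.

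Among the rises, Apobec3 rose in level, and some of its exons and forms were listed in tKO alone. Apobec3, a cytidine deaminase that restricts retroviruses (chromosome 15, 79891659 to 79915906), had 1.60, 1.52 and 0.50 FPKM in WT and 14.7, 15.8 and 24.3 in tKO. It rose by 3.14 ± 0.30 on the log2 scale (limma, adjusted p = 0.0063), and was called in all 9 fits without 1 library. One first exon (79895023 to 79895189) gave 5.32, 10.2 and 12.1 FPKM in the tKO libraries, and another (79897823 to 79897971) gave 3.83, 0.941 and 4.89. Neither was listed in any WT or dKO library. For the upstream first exon (79892058 to 79892569) the values were 1.44, 1.29 and 0.0472 FPKM in WT and 5.05, 4.17 and 6.26 in tKO. For the form without exon 5 of 9 the values were 14.2, 15.3 and 23.3 FPKM in tKO, with none listed in WT or dKO, whereas the form with exon 5 was listed in dKO replicate 1 alone, at 2.78 FPKM. Neither form was listed in WT, so the use of exon 5 there is not known. Inbred mouse strains are known to differ in the level of Apobec3 and in the use of this exon. The labels name 1 strain for all libraries, and a part of genetic background in the result was not tested.

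The exon and both start regions are printed because these values concern them. The exon (chr15:79899020-79899118, plus strand, 99 bases) is from GENCODE M21, with its own bases in capitals. The start regions, 250 bases before to 50 after an annotated start, are from RefSeq on GRCm38.p6, plus strand. They lie at chr15:79892158-79892457, inside the upstream first exon, and chr15:79894773-79895072, whose annotated start is that of the first exon seen in tKO. Capitals mark a match to the Tead-type motif GGAATG or its reverse complement CATTCC.
Apobec3 exon 5: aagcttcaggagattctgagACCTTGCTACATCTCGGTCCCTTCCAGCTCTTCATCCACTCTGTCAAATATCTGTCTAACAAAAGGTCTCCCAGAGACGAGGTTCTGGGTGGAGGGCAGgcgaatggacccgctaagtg
Apobec3 upstream start: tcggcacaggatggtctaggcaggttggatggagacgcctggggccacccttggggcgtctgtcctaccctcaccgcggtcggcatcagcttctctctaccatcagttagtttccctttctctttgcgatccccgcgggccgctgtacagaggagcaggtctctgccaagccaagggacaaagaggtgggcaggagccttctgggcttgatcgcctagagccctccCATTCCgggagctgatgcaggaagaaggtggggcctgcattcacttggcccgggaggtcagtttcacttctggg
Apobec3 downstream start: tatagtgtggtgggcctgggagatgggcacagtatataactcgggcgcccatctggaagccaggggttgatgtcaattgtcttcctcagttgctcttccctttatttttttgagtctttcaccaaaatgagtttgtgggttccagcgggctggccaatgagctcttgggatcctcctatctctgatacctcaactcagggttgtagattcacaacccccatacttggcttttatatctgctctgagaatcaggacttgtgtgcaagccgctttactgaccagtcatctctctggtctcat
The upstream region holds 1 match and the downstream region none. The motif, sought on both strands, was present in 14.7% of 32851 such regions of 300 bases and in any region of 16.6% of 27025 genes. Of the 20 called genes 16 had a region in the table, and 5 of these (Apobec3, Lipc, Pla2g5, Tenm4 and Yap1) held a match. The Pla2g5 regions with a match lie at chr4:138819208-138819507 and chr4:138863420-138863719. Neither covers the main first exon of Pla2g5 (138809588 to 138809823), which gave 40.8, 39.4 and 32.2 FPKM in WT. A match is a run of letters and no measurement of binding. The Yap1 region (chr9:8004547-8004846, minus strand) is printed as the start of the targeted gene.
Yap1 start: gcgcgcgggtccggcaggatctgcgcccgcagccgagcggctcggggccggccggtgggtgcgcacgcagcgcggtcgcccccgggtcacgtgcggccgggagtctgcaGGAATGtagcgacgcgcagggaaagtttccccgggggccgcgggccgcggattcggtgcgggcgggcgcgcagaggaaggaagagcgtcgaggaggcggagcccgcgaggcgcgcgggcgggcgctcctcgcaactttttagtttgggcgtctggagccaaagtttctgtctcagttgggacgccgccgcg

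Cep85, Aldh4a1 and Sumo2 were called through exons that are listed at 0 in WT. Cep85 encodes a centrosomal protein (chromosome 4, 134129858 to 134187112). The value came from 1 last exon inside the gene, at 134164112 to 134164757, with 160.3, 254.5 and 110.3 FPKM in tKO, not listed in WT or dKO (limma, adjusted p = 4.7e-06). A form that skips a longer stretch holding this exon (134159923 to 134164757) had 2.53, 2.79 and 2.30 FPKM in WT and 3.03, 3.85 and 3.46 in tKO. With first exons alone the log2 fold change of Cep85 was 4.11 (adjusted p = 0.11), and the main first exon stood at 163.3, 11.9 and 113.7 FPKM in tKO against 2.30 to 2.79 in WT. The called exon is thus a last exon that lies inside the gene.

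The first exon of Aldh4a1, a mitochondrial enzyme of proline breakdown (chromosome 4, 139622866 to 139649690), gave 13.1, 13.0 and 9.09 FPKM in tKO, with none listed in WT or dKO (limma, adjusted p = 4.2e-05). An exon-skipping form inside the same gene nevertheless had 14.3, 15.8 and 15.7 FPKM in WT and 13.1, 12.6 and 9.01 in tKO. RNA of Aldh4a1 was therefore listed in WT, and the call rests on a first exon listed in tKO alone. Sumo2, a small protein joined to other proteins, had 46.0, 22.4 and 42.1 FPKM in tKO and 28.7, 46.7 and 33.6 in dKO (limma, adjusted p = 5.3e-05 for tKO versus WT). Among events of any type that lay wholly inside Sumo2 and in no other gene on its strand, none was listed in WT. Cep85, Aldh4a1 and C230088H06Rik passed the filter on low values through the tKO libraries alone, so they could only be called as higher in tKO. Sumo2 passed it through the dKO and tKO libraries alone, so against WT it could only be called as higher. A gene that most cells use being listed at 0 can be a failed estimate, which was not tested.

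The remaining rises were of modest size or of predicted genes. Fxyd2, the gamma subunit of the sodium pump (chromosome 9, 45399669 to 45410278), had 2.87, 2.97 and 1.78 FPKM in WT and 7.85, 11.6 and 8.97 in tKO, a log2 fold change of 1.57 ± 0.18 (limma, adjusted p = 0.013). Rplp0, a protein of the ribosomal stalk (chromosome 5, 115559467 to 115563727), had 228, 254 and 219 FPKM in WT and 402, 380.3 and 390.5 in tKO, a log2 fold change of 0.74 ± 0.10 (adjusted p = 0.03). With the library medians made equal its log2 fold change was 0.67 (adjusted p = 0.06), and it kept its call in 1 of the 9 fits without 1 library (adjusted p up to 0.13). Tmem254b and Tmem254c, near-identical genes on chromosome 14 whose reads cannot be separated, both had a log2 fold change of 0.90 ± 0.12 (adjusted p = 0.03). Among other fits, both lost their calls without any 1 of the WT libraries (adjusted p up to 0.13). The protein-coding 4833420G17Rik went from 3.04 ± 1.3 to 11.9 ± 0.764 FPKM (mean ± SD, n = 3; adjusted p = 0.029). The call of 4833420G17Rik was kept in 3 of the 9 fits without 1 library (adjusted p up to 0.12). The lincRNA C230088H06Rik had 19.9, 6.82 and 7.70 FPKM in tKO and 0.636 FPKM in 1 WT library, with 0 in the others (adjusted p = 0.013).

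The called genes were next followed into dKO, which shares the WT libraries with this comparison. Of the 20 genes, 8 were called against WT in both knockouts. For Sumo2, which is among them, a value of 0 in WT left a rise as the only possible call. Pla2g5 had 5, 5.59 and 4.78 FPKM in dKO and a log2 fold change of -2.79 against WT (limma, adjusted p = 0.00052), beside -2.12 in tKO. Cst12 had 18.3, 16.8 and 13.4 FPKM in dKO, a log2 fold change of -2.85 (adjusted p = 0.00087) beside -1.75 in tKO. For Sema3b the values were -1.09 in dKO and -1.3 in tKO, for Pepd -0.57 and -0.79, for Tenm4 -1.58 and -1.37, and for Gm44930 -0.77 and -0.94. Fxyd2 stood at 0.82 in dKO and 1.57 in tKO. None of these, nor Sumo2, was called in tKO versus dKO (limma, adjusted p = 0.068 to 0.99), which does not show that the knockouts are alike.

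Another 10 genes were called in tKO against both WT and dKO and not in dKO versus WT. Lower in tKO were Yap1 itself and Lipc, and higher were Cep85, Aldh4a1, C230088H06Rik, Apobec3, 4833420G17Rik, Tmem254b, Tmem254c and Rplp0. Cep85, Aldh4a1 and C230088H06Rik passed the filter on low values through the tKO libraries alone. A rise in tKO was therefore their only possible call, and their place in this group was favoured in advance. For Aldh4a1 this holds for the first exon alone, since its internal form had 11.4, 10.4 and 13.5 FPKM in dKO and 13.1, 12.6 and 9.01 in tKO. Lipc had 4.07, 4.49 and 4.25 FPKM in dKO, already below every WT library, with a log2 fold change of -0.58 in tKO versus dKO (limma, adjusted p = 0.044) and of -0.50 in dKO versus WT (adjusted p = 0.057). Rplp0 had 256, 282 and 292 FPKM in dKO, and its log2 fold change in tKO versus dKO was 0.50 (adjusted p = 0.043). Apobec3 in dKO had 2.91, 1.21 and 1.53 FPKM, and tKO was above it by 2.75 on the log2 scale (adjusted p = 0.0044). Asns and Pdk1 met neither rule: dKO lay between WT and tKO for both, at 5.54 to 6.21 FPKM for Asns and 8.69 to 9.27 for Pdk1. Of all tested genes 255 (2.11%) were called in tKO versus dKO, 1.24% higher and 0.867% lower, and 461 (3.81%) in dKO versus WT, 1.46% higher and 2.35% lower.

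**Figure D3:**
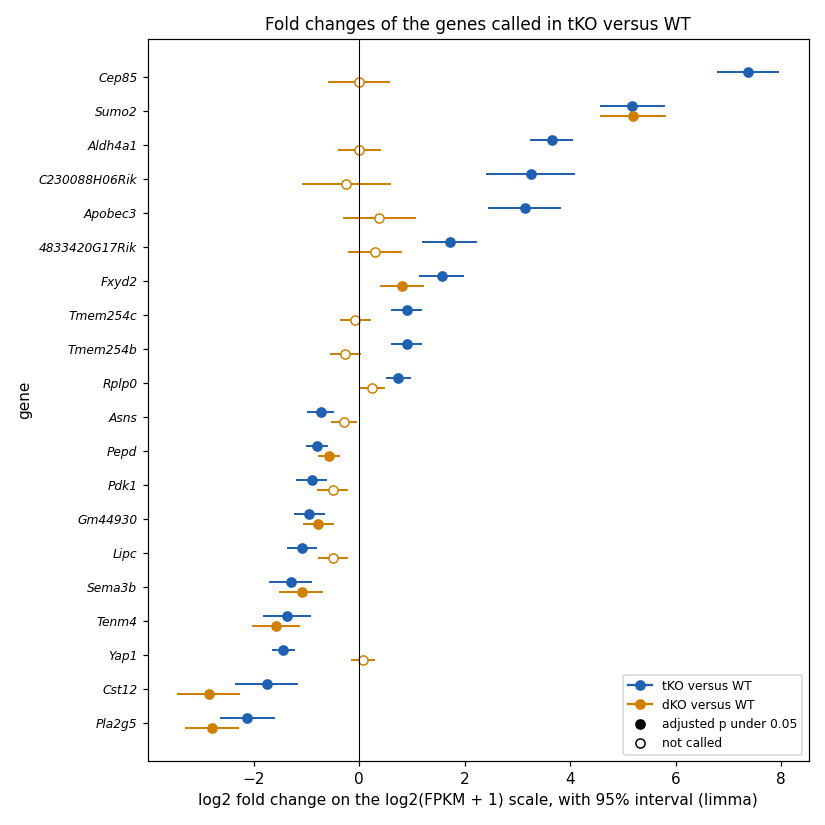
Log2 fold changes on the log2(FPKM + 1) scale (x axis) with 95% intervals from limma for the 20 genes (y axis) called in tKO versus WT, with dKO versus WT beside them; filled points are called. Pla2g5, Cst12, Tenm4 and Sema3b lie left of 0 in both knockouts, while Yap1 and Apobec3 are called in tKO alone. The Cep85 and Aldh4a1 points stand for single exons listed at 0 in WT and dKO, so their values depend on the pseudocount.

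The 8 largest rises and 8 largest falls of dKO versus WT were also followed into tKO, where Pla2g5, Cst12 and Sumo2 were called against WT. Cst8, a cystatin, had 447, 393 and 697 FPKM in WT, 56.9, 103 and 44.8 in dKO and 531, 258 and 399 in tKO, where the tKO and WT libraries overlapped. Lipf and Lipk, acid lipases, had log2 fold changes of -3.07 and -2.65 in dKO, and of -1.17 (adjusted p = 0.09) and -1.39 (adjusted p = 0.11) in tKO. Lypd8, a Ly6-type surface protein, had 531, 763 and 944 FPKM in WT, 92.0, 54.4 and 84.2 in dKO and 307, 158 and 101 in tKO (log2 fold change -2.09, limma, adjusted p = 0.089). Bglap2, an osteocalcin gene, had log2 fold changes of -2.52 in dKO and -1.95 in tKO (adjusted p = 0.18), and Bricd5 of -2.67 and -1.12 (adjusted p = 0.18). All but Cst8 of these falls of dKO lay below every WT library in tKO, against 7.68% of all tested genes. The genes were chosen for lying below the same WT libraries in dKO, which favours such a result in advance. It is therefore no separate evidence that the falls persist. Among the rises of dKO, Crisp1, a secreted sperm-binding protein, had 899, 1082 and 1022 FPKM in dKO and 191, 247 and 333 in tKO, where WT ranged from 67.6 to 351. Igfbp2, which binds insulin-like growth factors, had 30.7, 38.1 and 88.4 FPKM in tKO, all above the WT range of 11.5 to 14.7 (log2 fold change 1.82, adjusted p = 0.18). Defb6, a beta-defensin, had log2 fold changes of 2.28 in dKO and 1.77 in tKO (adjusted p = 0.18), where replicate 1 at 5.49 FPKM lay inside the WT range of 2.14 to 6.15. The metallothioneins Mt2 and Mt3 had 1.94 and 2.22 in dKO and 0.47 (adjusted p = 0.58) and 1.23 (adjusted p = 0.21) in tKO. For Npy6r the values were 2.26 and 1.0 (adjusted p = 0.26), and for Pzp 2.32 and 1.2 (adjusted p = 0.33). Of the most abundant genes, Lcn8, a lipocalin secreted by principal cells, had 3675, 5470 and 4396 FPKM in WT, 921, 710.2 and 795 in dKO and 3019, 2365 and 2669 in tKO. In tKO it lay below WT in every library without passing the test (log2 fold change -0.74, limma, adjusted p = 0.18), and it was 1.73 above dKO (adjusted p = 0.0045).

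Gene lists were read by how many members were called. Of all tested genes 0.165% were called in tKO versus WT, with a median log2 fold change of 0.043. In the Hippo list 1 of 28 tested members was called, the fall of Yap1, and the median was 0.14. Wwtr1, which encodes Taz, had 15, 13 and 14.3 FPKM in WT and 15.4, 16.6 and 16.4 in tKO, with no overlap but a log2 fold change of 0.18 (limma, adjusted p = 0.41). In dKO, 4 members were called higher, Wwtr1 among them, against 1.46% of all tested genes. Of 21 tested YAP/TAZ target genes none was called in tKO versus WT by limma, and 2 had an unadjusted p under 0.05, a share below the 13.2% of all tested genes. These were Birc5, an inhibitor of cell death with a role in mitosis, at a log2 fold change of 0.40, and Ccn1, a matrix protein, at 0.39 (adjusted p = 0.35 and 0.36). In dKO, 3 of the 21 were called higher, against 1.46% of all tested genes. None of 18 ERK response genes was called in tKO versus WT by limma. An unadjusted p under 0.05 was found for 4 (3 higher, 1 lower), against 13.2% of all tested genes. Etv5, a transcription factor induced by ERK, had 104, 102 and 101 FPKM in WT, 52.4, 43.5 and 47.8 in dKO and 91.0, 83.6 and 82.8 in tKO, and it was above dKO by 0.83 (adjusted p = 0.0045).

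Of the lists of secreted and segment-specific genes, 2 held called falls in more than 1 member. Of 24 tested initial segment genes 2 were called lower (Pla2g5 and Cst12), against 0.0826% of all tested genes. None was called higher, and the median was -0.22. In dKO 12 were called lower, against 2.35% of all tested genes, and in tKO versus dKO 8 were called higher, against 1.24%. No member of the 11 tested lipocalins was called by limma, and the median of the list was -0.55. An unadjusted p under 0.05 was found for 4, all lower, against 13.2% of all tested genes in either direction. Ptgds, a prostaglandin synthase of this family, had 166, 85.7 and 75.4 FPKM in WT and 51.8, 46.2 and 55.5 in tKO (log2 fold change -0.99, adjusted p = 0.24). Of 12 tested lipases and secreted phospholipases 2 were called lower, against 0.0826% of all tested genes, with a median of -0.34. These were Lipc and Pla2g5, which is also in the initial segment list. Of 14 tested beta-defensins none was called by limma, with a median of -0.14. At an unadjusted p under 0.05 stood 3 (1 higher, 2 lower), against the same 13.2%. Among the most abundant genes, Gpx5, a secreted glutathione peroxidase, had 16391 to 17615 FPKM in WT and 10682 to 13883 in tKO (log2 fold change -0.42, adjusted p = 0.44).

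Metabolic and growth lists had few called members, and of all tested genes 0.165% were called. Of 34 tested ATF4 amino acid response genes only Asns was called, while 12 members lay lower in every tKO library, against 7.68% of all tested genes, and the median was -0.19. Stc2, a secreted glycoprotein of this response, had 15.4, 12.7 and 11 FPKM in WT and 4.98, 6.77 and 3.81 in tKO (log2 fold change -1.20, limma, adjusted p = 0.055), and its log2 fold change against dKO was -1.3 (adjusted p = 0.013). Phgdh, the first enzyme of serine synthesis, had 14.9, 10.8 and 6.22 FPKM in tKO against 17.5 to 21.4 in WT (adjusted p = 0.21). None of 35 tested cell cycle genes was called by limma. In the higher direction 18 had an unadjusted p under 0.05, against 13.2% of all tested genes in either direction. Of the 35, 19 lay higher in every tKO library than in WT, against 11% of all tested genes, and the median was 0.48. Cenpf, a kinetochore protein, had 1.87, 1.70 and 1.47 FPKM in WT and 3.03, 3.93 and 3.01 in tKO (log2 fold change 0.68, adjusted p = 0.13). In dKO the same list had 7 called members, all higher, against 1.46% of all tested genes. Its median there was 0.62, beside 0.031 for all tested genes.

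Several other lists held a single call, and of all tested genes 0.165% were called. Fxyd2 was the called member among 10 of the sodium pump, Apobec3 among 33 interferon and antiviral genes, Sumo2 among 16 SUMO genes, Sema3b among 22 semaphorins and plexins, and Pdk1 among 31 glycolysis and HIF target genes. Sumo2, listed at 0 in WT, could only be called as higher. Rplp0 was the called member among 77 tested ribosomal protein genes, whose median was -0.02. Rps13, another ribosomal protein, had 12.7, 11.3 and 8.41 FPKM in WT and 28.7, 25.1 and 18.3 in tKO (log2 fold change 1.08, limma, adjusted p = 0.075). None of 20 cholesterol synthesis genes was called by limma, and 1 had an unadjusted p under 0.05, against 13.2% of all tested genes. Of the 20, 18 had a negative log2 fold change, while 57.5% of all tested genes had a positive one.

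**Figure D4:**
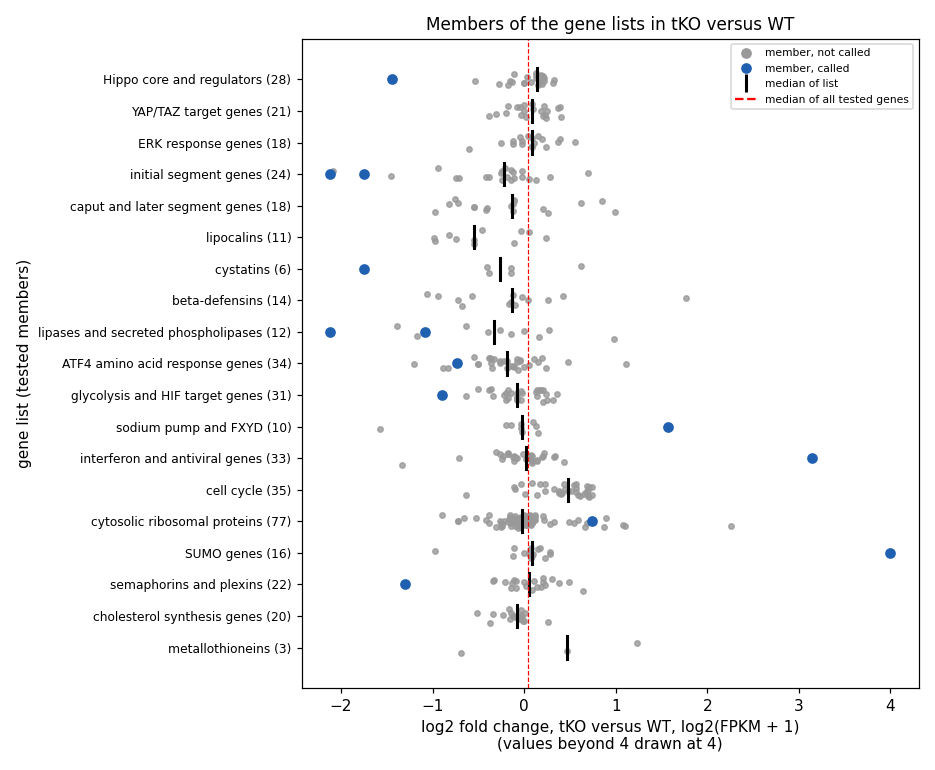
Log2 fold change in tKO versus WT (x axis) of each tested member of the gene lists (y axis, tested members in brackets); large points are called, black bars list medians and the dashed line the median of all tested genes, 0.043. The cell cycle list is shifted to the right with a median of 0.48 and no called member, and the initial segment list to the left with a median of -0.22.

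Several genes lay apart in the groups without passing the test. By the rule of a mean of at least 5 FPKM, groups that do not overlap (18.7% of all tested genes) and an unadjusted p under 0.01, Krt15, a basal keratin, had 12.6, 32.4 and 23.2 FPKM in WT and 6.74, 3.77 and 3.9 in tKO (limma, adjusted p = 0.09). Spink11, a protease inhibitor gene, had 71.7 to 121 FPKM in WT and 30.2, 9.60 and 4.73 in tKO (adjusted p = 0.16). Agr2, a disulfide isomerase of secretory cells, had 79.2 to 91.6 FPKM in WT and 47.5, 16.3 and 17.1 in tKO (adjusted p = 0.13). Among the rises, Cyp2e1, a cytochrome P450, had 2.33, 2.5 and 3.15 FPKM in WT and 7.43, 14.6 and 9.21 in tKO (adjusted p = 0.052). Ccl28, an epithelial chemokine, had 1.38 ± 0.382 FPKM in WT (mean ± SD, n = 3) and 4, 8.85 and 8.88 in tKO (adjusted p = 0.052).

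The tKO libraries differed from each other in markers of other cells, and these values stand beside every tKO count. Summed over the list of ciliated efferent duct markers, WT had 45.9 to 54.6 FPKM and tKO 57.4, 159.3 and 106.3. Of its 8 tested members 5 had an unadjusted p under 0.05, all higher, against 13.2% of all tested genes in either direction, and none was called. Foxj1, the master factor of motile cilia, had 12.4, 13.5 and 12.4 FPKM in WT and 15.2, 35.4 and 29.4 in tKO. The summed germ cell markers were 16.6 to 27.9 FPKM in WT and 25.3, 101.5 and 38.2 in tKO, while Prm1, Prm2, Tnp1, Tnp2, Odf1 and Smcp, which define late spermatids, were listed at 0 in WT and tKO. Basal cell markers summed to 195.5 to 224.1 FPKM in WT and 175.1, 139.3 and 135.1 in tKO, and 6 of 11 tested members lay lower in every tKO library, against 7.68% of all tested genes. Krt5, a basal keratin, had 56.6, 44.8 and 57.1 FPKM in WT and 37.8, 22.5 and 16.0 in tKO, whereas Trp63, the basal cell transcription factor, had 23.1 ± 2.18 in WT and 22 ± 1.95 in tKO (mean ± SD, n = 3). Principal cell markers summed to 31423 to 34312 FPKM in WT and 20558 to 25761 in tKO. That sum is mostly Gpx5, Spag11b and Lcn8; the median log2 fold change of the 15 tested members was -0.02, with 7 above 0, such as the water channel Aqp9 at 0.86 (limma, adjusted p = 0.25) and the estrogen receptor Esr1 at 0.45 (adjusted p = 0.25). Fibroblast and macrophage markers were highest in tKO replicate 2, at 1266 and 398.5 FPKM, against 574.9 to 716.2 and 180.2 to 223.8 in WT. The fibroblast sum was 750.5 and 739.8 FPKM in tKO replicates 1 and 3. It includes Col1a2, at 0.0355, 0.038 and 127.8 FPKM in WT and 200.2, 305.0 and 111.7 in tKO. Of the 11 tested fibroblast markers 7 had a log2 fold change above 0 and 4 below. The part of these markers in the called genes was not tested.

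**Figure D5:**
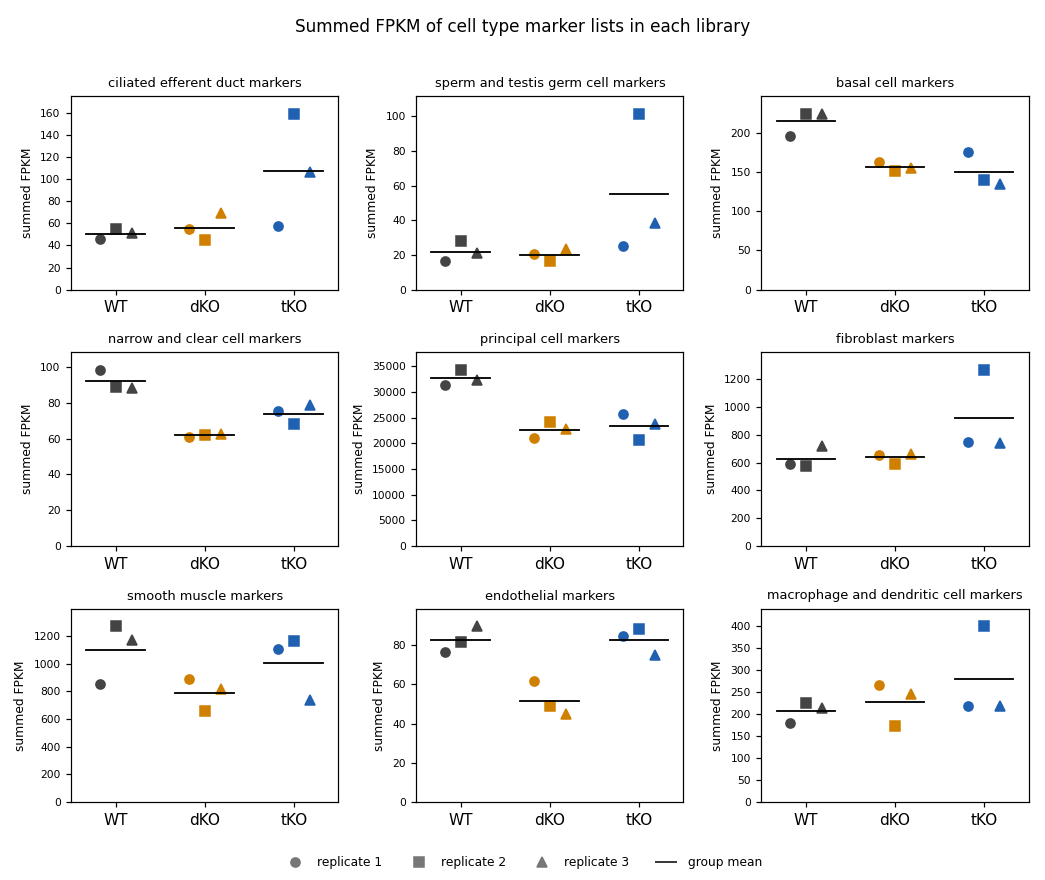
Summed FPKM (y axis) of 9 cell type marker lists in each WT, dKO and tKO library; symbols are replicates and bars group means. Ciliated markers are at 57.4 in tKO replicate 1 and at 159.3 and 106.3 in replicates 2 and 3, and the principal cell sum, mostly Gpx5, Spag11b and Lcn8, is lower in all tKO libraries than in WT.

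Without tKO replicate 1, the tKO library with the lowest ciliated marker sum, 153 genes were called (1.27% of 12033 tested), 94 higher (0.781%) and 59 lower (0.49%), and 17 of the 20 genes called with all libraries were among them. Cep85, Aldh4a1 and C230088H06Rik did not pass the filter on low values there. Genes of cilia were among the rises: Lrrc23, a protein of cilia and sperm tails, at a log2 fold change of 2.06 (limma, adjusted p = 0.0062) and Spag16, an axoneme protein, at 1.80 (adjusted p = 0.021). In replicate 1 Lrrc23 had 3.19 FPKM against 2.11 to 3.34 in WT, and the other tKO libraries had 14.4 and 13.2. Ccl28 rose by 2.06 (adjusted p = 0.0062) and Cyp2e1 by 1.79 (adjusted p = 0.025). Padi2, which converts arginine to citrulline, was lower by a log2 fold change of -1.88 (adjusted p = 0.0062), Spink5, a protease inhibitor, of -1.71 (adjusted p = 0.029), and Agr2 of -2.31 (adjusted p = 0.019). Lypd8 was at -2.51 (adjusted p = 0.022). These calls rest on 2 tKO libraries.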

How the data were processed

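Transcript events were measured by RNA-seq in 3 WT, 3 dKO and 3 tKO libraries. The deposited values are FPKM per event, 1 file per library, per the file headers; events at 0 are not listed, and no counts are given. Of tools, the submitters' processing notes list bcl2fastq 2.17.1.14 and DESeq, without roles; the aligner is not given in the sources used here, nor is the build. Events were placed in genes of GENCODE M21 (GRCm38): an annotated splice site matched 81.6% of first-exon and 82.4% of last-exon events, and at least 97.2% of their FPKM was placed in every library.

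A gene's value is its first-exon sum, or its last-exon sum where larger over the 9 libraries (4530 of 17163 genes). A locus can merge several genes, and reads of paralogs cannot be separated. Genes with 1 FPKM or more in 3 or more libraries were tested with limma 3.58.1 (R 4.3.3) on log2(FPKM + 1), 1 model of 9 libraries with a mean-variance trend, 6 residual and 2.88 prior degrees of freedom, and Benjamini-Hochberg adjustment. The script was tested on simulated data. Exon shares were compared with exact permutation tests (SciPy 1.17.1). Named genes are the targeted and all called genes, the largest changes with non-overlapping groups, the largest called without tKO replicate 1, up to 4 per list, the largest dKO changes and the most abundant. The comparison, lists and rules were chosen with earlier results of these data known, and the exons and single events after their values were seen. Replicate numbers were not treated as pairs, since the labels do not say that they are. Deviations from group means correlated at -0.106 to 0.011 between same-numbered libraries of different groups, and at -0.083 to 0.121 between differently numbered ones. With 3 libraries per group this cannot exclude a pairing.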

Additional observations from a re-analysis of the deposited data

How the results depend on the processing

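Of the genes called in tKO versus WT, Apobec3, Sumo2 and Yap1 were called in all 9 fits without 1 library, and no called gene changed direction under any setting tried. Named genes that were not called did: with first exons only Fxyd3 went from -1.58 to 0.86 and Mylk from 0.67 to -1.14, and with the highest single event Mylk was -1.27 and Sugp2 went from 1.67 to -0.25 (log2 fold changes). Quantile normalization turned Cst3 and Defb20 from -0.15 to 0.01 and 0.38, and Hbb-bs from -0.04 to 0.01. Without 1 library Hbb-bs ranged from -0.25 to 0.15, Dusp1 from -0.16 to 0.01, Plin4 from -0.17 to 0.44, and the Yap1 exon 6 difference from -8.18 to 9.11 percentage points (3.21 with all libraries; this alternative was chosen after seeing the data). The count of 20 was 31 without a filter on low values, 36 after quantile normalization, 13 with the WT and tKO libraries only, 32 with the highest single event of any type (chosen after seeing the data), and 7 to 153 without 1 library. With the replicate block it was 5, although same-numbered libraries did not deviate together, and the block gave 145 genes in tKO versus dKO, 235 in dKO versus WT and 4 altered in tKO and not in dKO. That last count, 10 as reported, was 18 without a filter, 18 after quantile normalization and 3 to 75 without 1 library. Without 1 library, tKO versus dKO gave 94 to 320 genes and dKO versus WT 105 to 454. The skipped share of Stk4 in tKO was 41.3 to 58.4 percentage points above WT and that of Stk3 38.8 to 41.5. The cause of these shifts was not tested. The split of 10 higher and 10 lower was 18 higher and 9 lower without the mean-variance trend and 11 higher and 14 lower with library medians made equal. FPKM without counts gives no depth, so no detection limit can be set, and low genes such as Tenm4 depend on the pseudocount (adjusted p = 0.066 by limma at 0.5).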
